A study of Mus musculus with 36 samples.

Results

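Cholesterol synthesis was followed through 8 genes, *Hmgcs1*, *Idi1*, *Fdps*, *Fdft1*, *Sqle*, *Lss*, *Cyp51* and *Insig1*, which were picked by name from the 24781 genes of the deposited table. They had been grouped as genes of cholesterol synthesis and uptake. However, 0 of the 8 is a receptor or carrier for uptake: 7 encode enzymes that build cholesterol and *Insig1* encodes a regulator of that pathway, so they are called cholesterol synthesis genes here and uptake genes are given separately. Tumour-associated macrophages (TAMs, CD45+CD11b+F4/80 high) and CD8+ T cells (CD45+TCRβ+CD8+) were sorted on day 7 from tumours of MC38, a mouse colon adenocarcinoma line, and 100 cells gave 1 library. For each of the 2 cell types there were 6 wild-type (WT) mice, 6 *muMt*-/- mice and 6 *muMt*-/- mice given GABA. The *muMt*-/- mice were on the C57BL/6J background and lack mature B cells because of a mutation in an immunoglobulin heavy chain gene, whereas WT mice were C57BL/6J or C57BL/6N, which of these was not given for each mouse. Mice were 2 to 5 months old, a range given for all mice used and not by group. The labels name no treatment for WT mice or for *muMt*-/- mice without GABA, which the paper describes as carrying placebo pellets, and GABA was released from a pellet implanted under the skin.

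Cells make cholesterol from acetyl-CoA by way of mevalonate, the isoprenoids, squalene and lanosterol, or take it up from lipoproteins by receptors. When membranes of the endoplasmic reticulum hold little cholesterol, the transcription factor SREBP-2 is carried to the Golgi apparatus, cleaved and sent to the nucleus, where it switches on nearly all enzymes of the pathway and *Insig1*, whose product holds SREBP back when sterols are plentiful. Macrophages also load cholesterol from lipoproteins and dying cells and export or esterify the surplus, and T cells need newly made sterols to divide.

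The genes gave few molecules, which sets how firmly anything can be said of them. In digital RNA sequencing each cDNA carries a molecular barcode, so that values are numbers of molecules and not of amplified copies. TAM libraries held a median of 242756 molecules in WT mice (206394 to 304100), 149960 in *muMt*-/- mice (100254 to 253608) and 192775 with GABA (151856 to 262606). CD8+ T cell libraries were shallower, with medians of 42065.5 (22896 to 76898), 67121.5 (51064 to 77839) and 80283 (65356 to 98015) in the same order. A cholesterol synthesis gene had 0 to 18 molecules in a TAM library and 0 to 10 in a CD8+ T cell library. The 8 genes together made up 0.013% to 0.043% of the molecules of a TAM library, with group medians of 0.0244%, 0.0196% and 0.0262%.

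Levels are given as normalized molecules, that is molecules divided by a size factor for each library, computed within a cell type, as the lowest, median and highest of 6 mice. *Hmgcs1* encodes the enzyme that joins acetyl-CoA and acetoacetyl-CoA to HMG-CoA, an early step on the way to mevalonate. In TAMs *Hmgcs1* was at 3.77, 7.17 and 9.45 normalized molecules in WT mice, at 4.18, 5.94 and 9.32 in *muMt*-/- mice and at 5.03, 9.69 and 14.2 with GABA. The groups overlapped, with 3 of the 6 GABA-treated mice above every mouse of both other groups. *Idi1*, which turns isopentenyl pyrophosphate into its isomer so that chain building can begin, was at 4.39, 6.18 and 7.89 in WT TAMs, at 1.55, 6.14 and 13.2 in *muMt*-/- TAMs and at 1.44, 4.92 and 14.2 with GABA. WT mice lay within the wider ranges of the other groups. *Fdps*, which makes farnesyl pyrophosphate, the last intermediate shared with protein prenylation, was at 4.39, 6.50 and 11.9 in WT TAMs, at 1.88, 4.82 and 7.37 in *muMt*-/- TAMs and at 2.16, 7.19 and 18.3 with GABA. The highest of these GABA-treated mice also had the highest value of *Hmgcs1* and *Idi1* in its group.

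*Fdft1* encodes squalene synthase, which joins a pair of farnesyl groups and thereby commits them to sterols. *Fdft1* was at 0.789, 3.39 and 5.81 normalized molecules in WT TAMs, at 0, 1.73 and 3.11 in *muMt*-/- TAMs and at 3.98, 4.24 and 6.10 with GABA. Each GABA-treated mouse lay above each untreated *muMt*-/- mouse, while WT mice spread over both ranges. These values stood on 3 to 6 molecules in a GABA-treated library and 0 to 2 in an untreated *muMt*-/- library. *Sqle*, the squalene epoxidase that adds the oxygen needed for ring closure, was at 2.91, 4.43 and 6.82 in WT TAMs, at 0, 3.34 and 4.70 in *muMt*-/- TAMs and at 3.66, 4.62 and 15.9 with GABA. The value of 15.9 stood apart from the other 5 GABA-treated mice, and the groups overlapped. *Lss*, the lanosterol synthase that closes the rings, was at 1.45, 3.39 and 5.52 in WT TAMs, at 0, 1.73 and 3.69 in *muMt*-/- TAMs and at 0, 4.46 and 7.11 with GABA. The *Lss* groups overlapped, and 2 *muMt*-/- libraries and 1 GABA-treated library had 0 molecules of it.

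*Cyp51*, the enzyme that removes a methyl group from lanosterol, was at 0.727, 6.68 and 12.6 in WT TAMs, at 0, 4.07 and 13.9 in *muMt*-/- TAMs and at 4.03, 6.88 and 10.1 with GABA. *Insig1* was at 3.16, 5.83 and 8.72 in WT TAMs, at 4.98, 8.46 and 9.76 in *muMt*-/- TAMs and at 2.75, 6.37 and 9.29 with GABA. Both genes overlapped between all groups, and *Insig1* was split in GABA-treated mice, with 3 mice below every untreated *muMt*-/- mouse and 3 above every WT mouse. The median was lower in *muMt*-/- TAMs than in WT TAMs for all 7 enzymes and higher for *Insig1*. None of these orders of medians passed the tests given next.

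**Figure D1:**
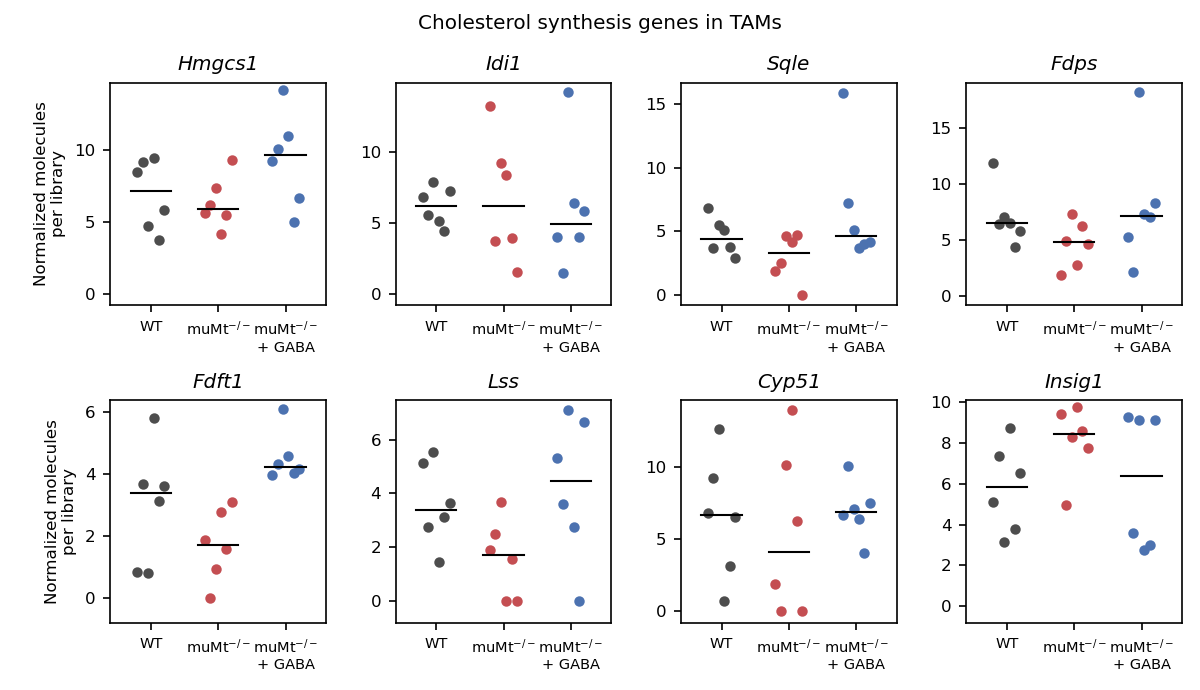
Normalized molecules of the 8 cholesterol synthesis genes in TAMs (vertical axis, a scale per gene), by group (horizontal axis); each point is 1 mouse and each line the median of 6. GABA-treated and untreated *muMt*-/- mice do not overlap for *Fdft1* (lowest 3.98 against highest 3.11, on 3 to 6 against 0 to 2 molecules) and overlap for the other 7 genes.

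Loss of B cells was read by comparing *muMt*-/- with WT TAMs. The 8 genes had a median log2 fold change of -0.29, with 6 of 8 below 0, beside -0.05 over all 9469 genes tested, and leaving out 1 library turned the sign of 3, *Hmgcs1*, *Idi1* and *Cyp51*. *Lss* had the lowest fold change, -0.99 (95% interval -2.16 to 0.19, adjusted p = 0.441), then *Fdft1* with -0.90 (-2.02 to 0.21, adjusted p = 0.458). *Insig1* was at 0.47 (-0.21 to 1.15, adjusted p = 0.558) and the other 5 lay between -0.47 and 0.04. By edgeR's quasi-likelihood test, with p-values adjusted over all genes tested and a threshold of 0.05, 0 of 8 passed, beside 2.05% of all genes tested. At an unadjusted p under 0.05 it was 0 of 8, beside 14.9%, and 0 of 8 were free of overlap between the groups, beside 2.48%. DESeq2 called 0 of 8 and had 0 at an unadjusted p under 0.05; it gave none of the 8 an adjusted p in any comparison within TAMs, because its independent filtering on mean level set them aside. In libraries of bulk cells, fewer cells of a kind and less RNA per cell cannot be told apart.

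Other properties of the libraries moved in the same comparison. The nuclear RNAs *Malat1* and *Neat1*, a sign of RNA quality or of the share of nuclear RNA, both rose, by 0.82 (adjusted p = 0.00385) and 1.22 (adjusted p = 8.6e-05) on the log2 scale. Their summed level had medians of 687 normalized molecules in WT mice, 1106 in *muMt*-/- mice and 709 with GABA, nearly all of it *Malat1* (665, 1050 and 674). The highest sum was 2110, in *muMt*-/- replicate 4, and without that library edgeR called 67 genes in this comparison in place of 194. All 12 cell cycle genes were below 0, with 1 called (*Rrm2*, -0.95, adjusted p = 0.0483), and their sum had medians of 247, 174 and 202, *Top2a* being the most abundant. Of 14 macrophage markers, *Lyz2*, *C1qb* and *C1qc* fell and *Itgam* rose, and their sum had medians of 3041, 2660 and 2734, led by *Ctss*. The number of molecules was also lowest in *muMt*-/- TAMs, as given above. The part of depth, nuclear RNA, cell cycle and macrophage markers in the values of the cholesterol synthesis genes was not tested.

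RNA of other cells was low or variable in TAM libraries. Of 10 T cell markers 1 was abundant enough to test (*Thy1*, the most abundant of them), and their sum reached 9.44 normalized molecules at most, in a WT mouse. Of 7 B cell markers, those at 0 in all TAM libraries included *Cd79a*, *Pax5* and *Blk*, and the sum reached 7.54 at most, in a *muMt*-/- mouse, beside 2.91 at most in WT mice, with *Cd79b* leading. The sum of 11 tumour and stroma markers, led by *Col3a1*, ran from 27.0 to 981 in WT, 28.0 to 400 in *muMt*-/- and 109 to 518 in GABA-treated mice, with the epithelial markers *Epcam*, *Krt18* and *Krt19* at 0, and *Cdh1* alone rose in *muMt*-/- TAMs (1.11, adjusted p = 0.0287). The 7 dendritic cell and neutrophil markers, led by *S100a8*, summed to medians of 3.79 in WT, 14.4 in *muMt*-/- and 13.0 in GABA-treated mice, with a highest value of 23.9 in a WT mouse. Of the 4 tested, 0 were called in TAMs by edgeR or DESeq2, with *Ccr7* at an unadjusted p under 0.05 by edgeR in *muMt*-/- and in GABA-treated against WT mice, and 0 by DESeq2, which gave the 4 no adjusted p.

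GABA in mice without B cells was read by comparing GABA-treated with untreated *muMt*-/- TAMs. Here 6 of the 8 genes were above 0, with a median log2 fold change of 0.61 beside 0.06 over all genes tested, and leaving out 1 library turned the sign of *Idi1* alone. *Fdft1* had the highest, 1.46 ± 0.53 (SE; 95% interval 0.40 to 2.53, adjusted p = 0.353), and was higher in 6 of 6 GABA-treated mice than in any untreated *muMt*-/- mouse. *Lss* followed with 1.22 ± 0.58 (SE; 0.04 to 2.40, adjusted p = 0.573), and 5 of 6 GABA-treated mice lay above the *muMt*-/- median. *Sqle* was at 0.92 ± 0.44 (SE; 0.03 to 1.81, adjusted p = 0.573), or 0.58 without the GABA-treated mouse of replicate 1, which had 12 molecules of it. That library also had the group's lowest sum of macrophage markers, 1863 normalized molecules beside a median of 2734, and its highest of nuclear RNAs, 1045 beside 709, and without it edgeR called 36 genes in this comparison in place of 2. *Fdft1*, *Lss* and *Sqle* act in a row, from farnesyl pyrophosphate to lanosterol, but were set together after their values had been seen. They also had the lowest mean levels of the 8 in TAMs, 3.08, 3.15 and 4.76 normalized molecules. Whether they moved as a stretch of the pathway was not tested. *Fdps* (0.64), *Hmgcs1* (0.58) and *Cyp51* (0.30) were also above 0, and *Idi1* (-0.11) and *Insig1* (-0.41) were below it. Without 1 library the lowest values were 0.23 for *Fdps* (GABA-treated replicate 3), 0.42 for *Hmgcs1* (the same library) and 0.047 for *Cyp51* (*muMt*-/- replicate 2).

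By edgeR's adjusted p 0 of the 8 passed in this comparison, beside 0.0211% of all genes tested (2 of 9469). At an unadjusted p under 0.05 it was 3 of 8, *Fdft1*, *Lss* and *Sqle*, all higher, beside 8.46%, and with DESeq2 it was 1 of 8, *Fdft1*, with 0 called. *Fdft1* was the 1 gene of 8 whose groups did not overlap (3 to 6 against 0 to 2 molecules), beside 0.591%. It was also the 1 case among 48 pairs of groups, over all 8 genes and both cell types, in which groups did not overlap. *Malat1* (-0.66, adjusted p = 0.139) and *Neat1* (-0.70, adjusted p = 0.132) were below 0 in this comparison and 11 of 12 cell cycle genes were above 0, with 0 called of both lists by edgeR, 2 and 3 at an unadjusted p under 0.05, and both nuclear RNAs but no cell cycle gene called by DESeq2, which gave 9 of the 12 no adjusted p. Of 14 macrophage markers 0 were called by either tool, with 4 at an unadjusted p under 0.05 by edgeR and 3 by DESeq2, all lower. Their part in the values of *Fdft1*, *Lss* and *Sqle* was not tested.

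Annotated genes overlap 4 of the 8, and of the overlapping genes *Ctsb* alone had molecules counted. *Fdft1* lies on chromosome 14 (63145150 to 63181687, GRCm38.p6), and its 3′ end overlaps that of *Ctsb*, a lysosomal protease gene on the opposite strand, by 774 bases. *Ctsb* had 6166 molecules over all libraries, and the sources used here do not state whether the counting used strand, so molecules from the overlap may have been given to either gene. *Ctsb* itself was at 0.06 (adjusted p = 0.953) in the comparison in which *Fdft1* was at 1.46. *Fdft1* also overlaps *Gm51283*, by 57 bases, which is not among the 24781 genes of the deposited table. *Lss* overlaps *4930483K19Rik*, which had 0 molecules, by 11269 bases. *Fdps* overlaps *Gm22935* by 104 bases and *Insig1* overlaps *Gm35223* over its whole length of 7251 bases. Neither *Gm22935* nor *Gm35223* is among the genes of the deposited table, and the other 4 genes overlap no annotated gene.

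GABA-treated *muMt*-/- TAMs were then set against WT TAMs. 7 of the 8 genes were above 0 and *Idi1* was at -0.07, with a median of 0.21 beside 0.02 over all genes tested. Leaving out 1 library turned the sign of 4 of the 8, *Idi1*, *Fdps*, *Cyp51* and *Insig1*. The highest fold changes were those of *Fdft1*, 0.56 (95% interval -0.28 to 1.40, adjusted p = 0.845), and *Hmgcs1*, 0.46 (-0.12 to 1.04, adjusted p = 0.793). By edgeR 0 of 8 passed, beside 0.0739%. At an unadjusted p under 0.05 it was 0 of 8, beside 7.02%, and 0 of 8 were free of overlap, beside 0.57%. DESeq2 called 0 of 8, and 0 of 8 had an unadjusted p under 0.05. Of 14 macrophage markers edgeR called 0, with 4 at an unadjusted p under 0.05, *Lyz2* (-0.74), *Cd68* (-0.62), *C1qb* (-0.48) and *C1qc* (-0.33), and DESeq2 had the same number and called *Cd68* and *Lyz2* as lower. Of the nuclear RNAs, *Neat1* was at 0.52 (adjusted p = 0.475) and *Malat1* at 0.17 (adjusted p = 0.889), with 0 called and 1, *Neat1*, at an unadjusted p under 0.05 by both tools. Of 12 cell cycle genes 11 were below 0, with 0 called by either tool and 1 (*Top2a*) at an unadjusted p under 0.05 by edgeR and 0 by DESeq2, with no adjusted p for 9. Their part was not tested. The 3 comparisons share their groups of mice, so their values for a gene are not independent of each other: *Fdft1* was at -0.90, 1.46 and 0.56, *Lss* at -0.99, 1.22 and 0.23, and *Insig1* at 0.47, -0.41 and 0.06, in the order given here.

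**Figure D2:**
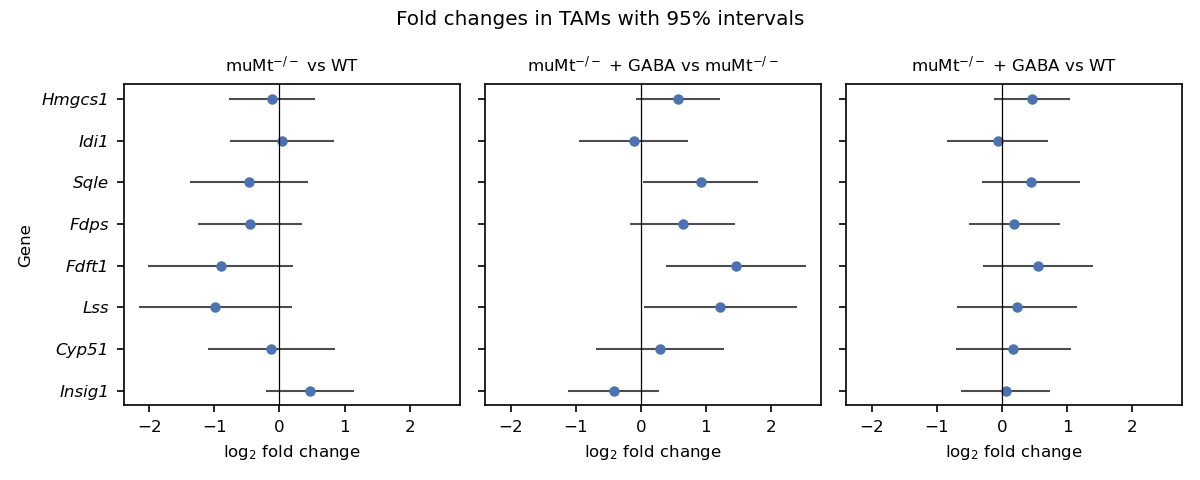
Log2 fold change of each cholesterol synthesis gene (vertical axis) in the 3 comparisons within TAMs (horizontal axis, log2 scale); points are edgeR estimates and bars their 95% intervals, not adjusted for the number of genes. The intervals of *Fdft1*, *Lss* and *Sqle* lie above 0 for GABA-treated against untreated *muMt*-/- mice, and 0 of the 8 genes passed the adjusted threshold in any panel.

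The rest of the pathway was read in lists of genes with known roles. In *muMt*-/- against WT TAMs, 0 genes were called by edgeR among 12 other synthesis enzymes tested (median log2 fold change -0.09, from *Lbr* at -0.81 to *Mvd* at 1.06), 11 genes of SREBP control (median -0.32), 12 of uptake and lysosomal release (-0.04, with *Gramd1b* highest at 0.27), 12 of efflux and storage (0.05, from *Lpcat3* at -0.67 to *Soat1* at 0.63) and 12 of the isoprenoid branch (-0.05, from *Coq2* at -1.20 to *Rce1* at 0.45). At an unadjusted p under 0.05 the numbers were 1, 4, 1, 2 and 1, and 1, 2, 0, 1 and 1 with DESeq2, which called *Soat1*, the enzyme that esterifies cholesterol for storage, as higher and gave no adjusted p to 10, 10, 6, 5 and 10 genes of these lists. Of all genes 14.9% had an unadjusted p under 0.05 by edgeR. In SREBP control the 4 included *Srebf1*, *Scap* and *Mbtps1*, these with fold changes below 0. *Srebf1*, which encodes SREBP-1, was at 5.52, 6.46 and 11.1 normalized molecules in WT TAMs, at 0, 2.79 and 5.48 in *muMt*-/- TAMs and at 3.32, 6.65 and 9.06 with GABA. Its WT and *muMt*-/- groups did not overlap, beside 2.48% of all genes, and its log2 fold change was -1.07 (adjusted p = 0.155). *Insig2* had the highest value of this list, 0.25.

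Fatty acid synthesis genes answer mainly to SREBP-1. Against WT TAMs, 10 of 11 were below 0 in *muMt*-/- TAMs, beside 5085 of all 9469 genes tested, with a median of -0.73, from *Acaca* at -1.40 to *Gpam* at 0.88. By edgeR 0 were called, 5 had an unadjusted p under 0.05 (*Acaca*, *Elovl5*, *Fads1*, *Fasn* and *Scd1*, all lower), beside 14.9% of all genes, and DESeq2 had 3 such genes and 0 calls, with no adjusted p for 8 of the 11. In *muMt*-/- against WT TAMs *Malat1* (0.82) and *Neat1* (1.22) also rose, and *Lyz2*, *C1qb* and *C1qc* fell. All 12 cell cycle genes were below 0 there, and the number of molecules was lowest in *muMt*-/- TAMs. With GABA, 9 of 11 fatty acid synthesis genes were above 0 against untreated *muMt*-/- TAMs, beside 5284 of 9469, with a median of 0.79, from *Gpam* at -0.72 to *Acaca* at 1.77. Again 0 were called by edgeR, with 5 at an unadjusted p under 0.05 (*Acaca*, *Fasn*, *Me1*, *Scd1* and *Scd2*, all higher), beside 8.46%. DESeq2 had the same number, gave 10 of the 11 no adjusted p and called 0. Both comparisons use the same untreated *muMt*-/- mice, with opposite sign, so a fall in the first and a rise in the second are not independent. *Fasn*, the fatty acid synthase, was at 2.91, 5.31 and 9.38 in WT TAMs, at 1.39, 2.32 and 3.73 in *muMt*-/- TAMs and at 6.41, 7.63 and 12.5 with GABA. Its 2 *muMt*-/- groups did not overlap, beside 0.591% of all genes, and the fold change between them was 1.66 ± 0.40 (SE, adjusted p = 0.117). *Fasn* was singled out after its values had been seen. Among GABA-treated TAMs the highest sum of fatty acid synthesis genes was in replicate 1, 182 normalized molecules beside a median of 128. That library also had the group's lowest sum of macrophage markers and its highest of nuclear RNAs. Against untreated *muMt*-/- mice nuclear RNAs had a median of -0.68 and 11 of 12 cell cycle genes were above 0. The part of these lists and of depth in the fatty acid synthesis genes was not tested in either comparison.

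The other lists had medians nearer 0 in GABA-treated against untreated *muMt*-/- TAMs. By edgeR 0 genes were called among other synthesis enzymes (median 0.17, from *Acat2* at -0.66 to *Nsdhl* at 1.10), SREBP control (0.33, from *Insig2* at -0.29 to *Srebf1* at 0.92), uptake (0.10, from *Gramd1b* at -1.12 to *Vldlr* at 1.47), efflux and storage (0.04, from *Plin2* at -0.36 to *Nr1h2* at 0.90) and the isoprenoid branch (0.01, from *Rce1* at -0.48 to *Coq2* at 0.84). At an unadjusted p under 0.05 there were 0, 2, 3, 1 and 0 genes, and 0, 0, 3, 1 and 0 with DESeq2, which gave no adjusted p to 12, 11, 9, 8 and 12 of them and called *Msr1*, a scavenger receptor, which edgeR had at -0.45 (adjusted p = 0.285). Against WT TAMs, 0 genes of all 6 lists were called in GABA-treated mice by either tool, with 0, 0, 1 (*Vldlr*), 0, 0 and 2 (*Scd2* and *Fads1*) at an unadjusted p under 0.05 by edgeR and 0, 0, 1, 0, 0 and 1 by DESeq2, in the same order with fatty acid synthesis last. DESeq2 gave no adjusted p to 12, 11, 8, 7, 11 and 9 of them. The medians were 0.21, -0.04, -0.18, 0.13, -0.03 and 0.16.

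In CD8+ T cells the genes were closer to the limit of detection. *Lss* had a mean of 0.707 normalized molecules and was left out by the filter, which asks for a mean above 1, so that 7 of 8 were tested. *Lss* had at least 1 molecule in 3 of 6 WT, 2 of 6 *muMt*-/- and 3 of 6 GABA-treated libraries, with medians of 0.376, 0 and 0.394 and a highest value of 2.45. *Hmgcs1* was at 0.751, 2.02 and 4.13 in WT mice, at 1.12, 1.83 and 3.33 in *muMt*-/- mice and at 0.620, 1.18 and 2.74 with GABA. The *Hmgcs1* groups overlapped throughout. *Idi1* was at 2.21, 3.43 and 5.50, at 1.12, 3.93 and 5.20 and at 1.24, 2.54 and 4.73 in the same order, again with overlap. *Fdps* was at 0, 4.54 and 5.50 in WT mice, at 1.01, 1.58 and 3.71 in *muMt*-/- mice and at 1.56, 2.64 and 3.15 with GABA. All 12 *muMt*-/- mice lay below the WT median of *Fdps*, while 1 WT library had 0 molecules and lay below all of them.

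*Sqle* was at 0, 3.24 and 4.81 in WT CD8+ T cells, at 0, 0.371 and 3.36 in *muMt*-/- mice and at 0.620, 2.03 and 4.45 with GABA. It had 0 molecules in 2 WT and 3 *muMt*-/- libraries and in none with GABA. *Fdft1* ranged from 0 to 2.40, from 0 to 4.05 and from 0 to 2.48, with medians of 0.891, 0.797 and 1.03. Its highest value, in *muMt*-/- replicate 1, stood on 4 molecules. *Cyp51* ranged from 0 to 3.43, from 0 to 3.27 and from 0 to 6.36, with medians of 2.14, 2.13 and 1.79. *Insig1* was at 0, 1.29 and 4.57, at 0.818, 2.77 and 4.46 and at 0.620, 1.70 and 3.18. These groups overlapped for every gene.

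**Figure D3:**
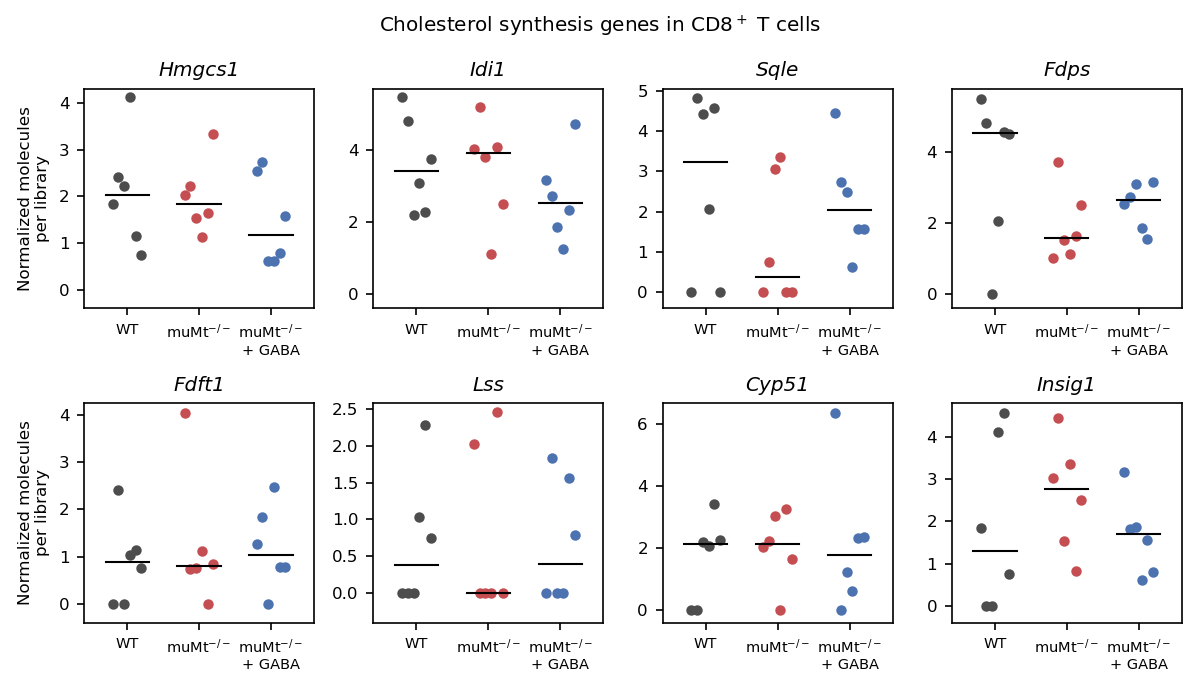
Normalized molecules of the 8 cholesterol synthesis genes in CD8+ T cells (vertical axis, a scale per gene), by group (horizontal axis); each point is 1 mouse and each line the median of 6. All groups overlap, and many libraries are at 0, among them 4 of 6 *muMt*-/- libraries for *Lss*.

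In *muMt*-/- against WT CD8+ T cells 5 of the 7 genes tested were above 0, with a median log2 fold change of 0.12 beside 0.15 over all 6663 genes tested, and leaving out 1 library turned the sign of *Hmgcs1* and *Idi1*. *Sqle* (-0.81, 95% interval -2.41 to 0.79, or -1.44 without *muMt*-/- replicate 3) and *Fdps* (-0.75, -1.78 to 0.29) were below 0. By edgeR 0 of 7 passed (smallest adjusted p = 0.918), beside 0% of all genes, with 0 of 7 at an unadjusted p under 0.05, beside 6.17%, and 0 of 7 free of overlap, beside 0.435%. GABA-treated against untreated *muMt*-/- CD8+ T cells had a median of 0.08 beside 0.03, with *Sqle* highest at 0.94 (-0.47 to 2.35) and *Insig1* lowest at -0.57 (-1.68 to 0.54). By edgeR 0 of 7 passed there, beside 0%, with 0 at an unadjusted p under 0.05, beside 3.71%, and 0 free of overlap, beside 0.255%. GABA-treated against WT mice had a median of -0.23 beside 0.21 over all genes, with 4 of 7 below 0, and edgeR called 0 of 7, beside 0%, with 0 at an unadjusted p under 0.05, beside 6.89%, and 0 free of overlap, beside 0.315%. DESeq2 had 0 calls and 0 unadjusted p under 0.05 among the 7 genes in each of these comparisons. With the size factors of DESeq2 the all-gene median was 0.059 and that of the 7 genes 0.021 in *muMt*-/- against WT mice, and 0.060 and -0.37 in GABA-treated against WT mice, while in GABA-treated against untreated mice the 7 had 0.023, or -0.0031 by DESeq2 itself.

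Macrophage markers were also measured in the CD8+ T cell libraries. The sum of 14 of them had medians of 21.0, 78.4 and 111 normalized molecules and highest values of 114, 402 and 210, with *Ctss* the most abundant (medians 11.1, 36.7 and 43.7). Of the 12 tested, 12 were above 0 in *muMt*-/- against WT mice, with a median log2 fold change of 2.26, 0 called by edgeR and by DESeq2, and 9 and 7 at an unadjusted p under 0.05. In GABA-treated against WT mice it was again 12 of 12, with a median of 2.13, 0 called by both tools and 9 and 4 at an unadjusted p under 0.05. *Adgre1* and *Mrc1* were at 0 in all WT libraries. The sum of the 10 T cell markers had medians of 277, 236 and 243, led by *Thy1*, and 0 of 10 were called or had an unadjusted p under 0.05 by edgeR or DESeq2 in the 3 comparisons. B cell markers summed to 2.34 at most, with *Cd79a*, *Ms4a1*, *Pax5* and *Blk* among those at 0 in all CD8+ T cell libraries. The 11 tumour and stroma markers summed to medians of 12.4, 40.3 and 13.3, led by *Col3a1*, with *Krt8*, *Krt18* and *Krt19* at 0. Of 4 tested, 0 were called by edgeR or DESeq2, and 0, 3 and 1 had an unadjusted p under 0.05 by edgeR in *muMt*-/- against WT, GABA-treated against untreated and GABA-treated against WT mice, and 0, 1 and 0 by DESeq2. In GABA-treated against untreated mice these were *Dcn* (-2.51), *Col3a1* (-1.27) and *Cdh1* (1.76). The 7 dendritic cell and neutrophil markers summed to medians of 18.8, 18 and 15.2, mostly *Ccr7*, which naive T cells express too, and 0 of 3 tested were called by edgeR or DESeq2, with *Cxcr2* at an unadjusted p under 0.05 by edgeR in *muMt*-/- against WT mice and 0 by DESeq2. The part of these cells, and of depth, in the values of the cholesterol synthesis genes was not tested.

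In CD8+ T cells 0 genes of the 6 pathway lists were called by edgeR or DESeq2 in any of the 3 comparisons. Of all genes tested, 6.17% had an unadjusted p under 0.05 by edgeR in *muMt*-/- against WT mice. The share was 3.71% in GABA-treated against untreated *muMt*-/- mice and 6.89% in GABA-treated against WT mice. For *muMt*-/- against WT mice edgeR had 1 (*Msmo1*) of 7 other synthesis enzymes, 0 of 7 genes of SREBP control, 2 (*Lrp1* and *Msr1*) of 8 uptake genes, 1 (*Soat1*) of 8 efflux and storage genes, 0 of 10 isoprenoid genes and 1 (*Fasn*) of 6 fatty acid synthesis genes at an unadjusted p under 0.05, and DESeq2 had 0, 0, 1, 1, 0 and 1. *Soat1* was at 1.79 (adjusted p = 0.336), *Msr1* at 2.30 (adjusted p = 0.61) and *Fasn* at -1.43 (adjusted p = 0.49). *Msr1*, *Lrp1* and *Soat1* are also expressed by macrophages, whose markers tested were above 0 too, and their part was not tested. In GABA-treated against untreated *muMt*-/- mice the edgeR numbers were 0, 0, 0, 2, 0 and 1, with 0 in all by DESeq2, and *Fasn* was at 1.02 (adjusted p = 0.999). In GABA-treated against WT mice they were 0, 0, 2, 1, 0 and 0 by both tools. The medians of the 6 lists, in the same order, were 0.21, 0.15, 0.39, 0.61, -0.13 and -0.0001 in *muMt*-/- against WT mice, -0.07, -0.21, -0.21, 0.11, 0.24 and -0.16 with GABA against untreated *muMt*-/- mice, and 0.23, 0.11, 0.16, 1.15, 0.12 and -0.08 with GABA against WT mice.

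WT TAMs were compared with WT CD8+ T cells in a fit to all 36 libraries. The 8 genes had a median log2 fold change of 0.16 beside 0.36 over all 8477 genes tested, from *Idi1* at -0.55 (95% interval -1.47 to 0.37, adjusted p = 0.44) to *Lss* at 0.63 (-1.01 to 2.26, adjusted p = 0.653). By edgeR 0 of 8 passed, beside 22.7% of all genes tested, with 0 of 8 at an unadjusted p under 0.05, beside 32.6%, and DESeq2 likewise had 0 and 0. With all libraries on 1 scale, *Idi1* had medians of 3.56 normalized molecules in WT TAMs and 5.81 in WT CD8+ T cells, and *Hmgcs1* of 4.16 and 3.44. *Fdps* had medians of 3.78 and 7.56 and *Insig1* of 3.40 and 2.22. All these ranges overlapped, and the interval of each fold change held 0. The all-gene median of 0.36 was 0.20 with the size factors of DESeq2 and 0.04 with total molecules alone, and the share of higher genes among those called was 1420 of 1928, 1176 of 1808 and 968 of 1728, and *Insig1* (0.02) and *Cyp51* (0.31) were below 0 with total molecules alone, *Insig1* with these size factors too. The median of the 8 genes was 0.0085 with these size factors, 4 of 8 being above 0, and -0.15 with total molecules alone, 3 of 8 being above 0. *Lss* was at 1.23 without WT CD8+ T cell replicate 5. It had 4 molecules over all WT CD8+ T cell libraries, and the filter left it out in CD8+ T cells alone.

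Genes of cholesterol uptake, export and storage were compared between the cell types in the same fit. There edgeR called 22.7% of all genes tested, 1420 of 1928 of them higher in TAMs, with an all-gene median of 0.36. Of 12 genes of uptake and lysosomal release 7 were higher in TAMs and 1 was lower by edgeR, with a median of 1.61, and DESeq2 called 7, *Gramd1b* among them and *Lipa* and *Stard3* not. *Msr1* was at 83.6, 120 and 134 normalized molecules in WT TAMs and at 0, 0.376 and 2.29 in WT CD8+ T cells, each on the scale of its cell type, and was higher by 5.59 ± 0.51 on the log2 scale (SE, adjusted p = 3.53e-13). *Lrp1*, a lipoprotein receptor (4.40), *Npc2*, which binds cholesterol in the lysosome (2.24), *Stard3* (1.90) and *Lipa*, the lysosomal acid lipase (1.12), were among the others, and *Cd36*, a scavenger receptor, had 93 molecules in WT TAMs and 0 in WT CD8+ T cells, at least 5.55-fold higher against a floor of 3 molecules over the group. *Gramd1a*, which carries cholesterol from the plasma membrane, was lower in TAMs (-1.62, adjusted p = 0.00282). Of 10 efflux and storage genes 7 were higher in TAMs, with a median of 2.5, among them *Ch25h*, which makes an oxysterol (5.88, adjusted p = 1.12e-08), *Abca1* and *Abcg1*, which export cholesterol (4.13 and 3.01), and *Soat1* (2.58), then *Plin2* (2.72), *Nceh1* (2.43) and *Mylip* (2.08); DESeq2 called 6.

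Other lists were closer to the cholesterol synthesis genes. Of 11 other synthesis enzymes 2 were higher in TAMs and 0 lower, *Msmo1* (2.66, adjusted p = 0.00555; 2 molecules in all in WT CD8+ T cells) and *Mvk*, with 23 molecules in WT TAMs and 0 in WT CD8+ T cells, at least 1.37-fold. The list's median was 0.89, or 0.51 with *Mvk* at that bound, and DESeq2 called *Msmo1* and *Lbr*, which edgeR had at -0.65 (adjusted p = 0.119). *Erlin1* (2.52, adjusted p = 0.00167) was the 1 of 11 genes of SREBP control that was called (median 0.90). In fatty acid synthesis *Fads1* was higher (1.86, adjusted p = 0.000956) and *Fasn* lower (-1.61, adjusted p = 0.000808) in TAMs, 2 of 11 tested, with a median of 0.08, and 0 of 13 isoprenoid genes were called (median 0.26; 1 at an unadjusted p under 0.05 by edgeR, 0 by DESeq2 under either rule). As a check of the sort, all 14 macrophage markers were higher and all 10 T cell markers lower in TAMs by edgeR.

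Whether B cell loss or GABA acted differently on TAMs and CD8+ T cells was tested as a difference of fold changes. For B cell loss the 8 genes had a median difference of -0.19, TAMs less CD8+ T cells, beside -0.30 over all genes tested. *Fdft1* had the lowest, -1.38 (95% interval -3.36 to 0.61, adjusted p = 0.663), or -0.65 without *muMt*-/- CD8+ T cell replicate 1, and *Sqle* the highest, 0.32 (-1.53 to 2.18), or -0.089 without WT CD8+ T cell replicate 5 and 0.98 without *muMt*-/- CD8+ T cell replicate 3. By edgeR 0 of 8 passed, beside 0.0118%, with 0 at an unadjusted p under 0.05, beside 10.1%, and 0 and 0 with DESeq2, which gave the 8 no adjusted p here. With the size factors of DESeq2 the all-gene median was -0.11 and that of the 8 genes 0.0037, and DESeq2 itself gave the 8 a median of 0.013, with 4 of 8 above 0 in both. For GABA 7 of 8 differences were above 0, 5 of the 8 turning sign when 1 library was left out, with a median of 0.27 beside 0.01, the highest those of *Lss* at 1.38 (-0.98 to 3.74, adjusted p = 0.994) and *Fdft1* at 1.33 (-0.41 to 3.07, adjusted p = 0.994). *Lss* was at 0.45 without *muMt*-/- CD8+ T cell replicate 5, and *Fdft1* at 0.62 without replicate 1 of that group. In CD8+ T cells alone *Lss* was too low to test, with a mean of 0.707 normalized molecules. It had 5 molecules over the untreated and 5 over the GABA-treated *muMt*-/- libraries there, and passed the filter here because the mean was taken over all libraries. By edgeR 0 of 8 passed, beside 0%, with 0 at an unadjusted p under 0.05, beside 4.53%, and 0 and 0 with DESeq2. Of the 6 pathway lists, 0 genes were called by edgeR or DESeq2 in both tests, DESeq2 giving no adjusted p to 11, 11, 10, 10, 13 and 10 of them for B cell loss. At an unadjusted p under 0.05 there were 2, 3, 3, 1, 0 and 0 by edgeR and 1, 1, 3, 0, 0 and 0 by DESeq2 for B cell loss, and 0, 1, 0, 2, 1 and 2 by both tools for GABA. Of macrophage markers in the B cell loss test, 14 of 14 were below 0 with a median of -2.63, 0 called by edgeR with 10 at an unadjusted p under 0.05, and 4 called by DESeq2. Among them *Adgre1* and *Mrc1* were not tested in CD8+ T cells alone and had 0 molecules in all WT CD8+ T cell libraries. The size of their differences is therefore not fixed by the data. Of nuclear RNAs 2 of 2 were above 0 (median 0.86), with 0 called by edgeR and 2 at an unadjusted p under 0.05. Of cell cycle genes 11 of 12 were below 0 (median -0.75), with 0 called by edgeR and 2 at an unadjusted p under 0.05. The part of these lists was not tested.

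The genes varied together only loosely among mice. Over the 18 TAM libraries, 20 of the 28 pairs of genes had a Pearson correlation above 0, with a median of 0.147, from -0.07 for *Idi1* and *Fdft1* to 0.608 for *Sqle* and *Cyp51*. Over the 18 CD8+ T cell libraries it was 17 of 28, with a median of 0.0499, from -0.309 for *Idi1* and *Sqle* to 0.432 for *Idi1* and *Fdps*. The genes most like the mean of the 8 standardized values in TAMs, among 5305 with a mean of at least 5 normalized molecules, included *Pdap1* (0.792), *Lrrc47* (0.766), *Naa10* (0.765) and *Crk* (0.737). In CD8+ T cells, among 1883, they were *Mir684-1* (0.747), *Zfand5* (0.723), *Irf1* (0.680), *Efhd2* (0.673) and *Mcmbp* (0.668). The same mean had a correlation of 0.245 with the log2 number of molecules of a library in TAMs and 0.119 in CD8+ T cells. These correlations describe these libraries, whose mice share groups and whose values share depth, and in such low numbers a weak one is no finding.

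The sterol-regulated start of such a gene is shown for *Hmgcs1*, the first enzyme of the set. RefSeq promoters of the same build, 300 bases from 250 before to 50 after the start, were held for 5 of the 8 genes (*Hmgcs1*, *Idi1*, *Lss*, *Cyp51* and *Insig1*) and were searched on both strands for TCACNCCAC, a form of the sterol regulatory element, for CCAAT and for GGGCGG. The sterol element was in 1 of 5, *Hmgcs1*, beside 1.24% of 32851 promoters. CCAAT was in 5 of 5, beside 37.4%, and GGGCGG in 5 of 5, beside 35.7%, with 0 matches that overlapped another. The lines give the 150 bases before the start of *Hmgcs1* (chr13:119690201-119690350, + strand) and, for comparison, of *Cyp51* (chr5:4104698-4104847, – strand), 5′ to 3′, outside the transcribed part, with matches to any of these motifs in capitals. A match describes the letters only, and says nothing of binding in these cells.
Hmgcs1: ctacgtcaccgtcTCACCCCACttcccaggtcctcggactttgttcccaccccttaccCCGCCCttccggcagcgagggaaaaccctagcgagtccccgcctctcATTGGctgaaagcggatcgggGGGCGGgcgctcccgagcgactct
Cyp51: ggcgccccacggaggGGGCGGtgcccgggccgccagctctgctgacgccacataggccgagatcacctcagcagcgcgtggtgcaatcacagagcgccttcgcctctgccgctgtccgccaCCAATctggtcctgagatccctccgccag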

How the data were processed

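Per the study's methods and labels, 100 sorted cells per mouse were lysed, spike-in RNA was added, cDNAs were given molecular barcodes, and reads were mapped to mm10 with STAR. The deposited table holds counts of distinct molecules per gene, made by the authors, for 36 libraries and 24781 genes, of which 9188 had no molecule. It holds 0 spike-in genes, so levels are relative to the other genes. Genes with a mean above 1 normalized molecule (DESeq2 size factors) were tested with edgeR 4.0.16 (TMM, quasi-likelihood F-test, 1 coefficient per group, Benjamini-Hochberg adjustment over all genes tested, threshold 0.05) in R 4.3.3. DESeq2 1.42.0, other scalings and filters, a replicate block and leaving out each library were alternatives. Levels were computed in Python 3.11.15 with pandas 2.3.3. The tests were run on simulated counts with the same spread for every gene, which does not show how they behave on these libraries. Genes were named as the members, as list genes that passed or else had the highest and lowest fold change, and as the 5 most like the members; some are not reported here. Genes at an unadjusted p under 0.05, motifs, overlapping genes and bounds were added after values had been seen. The members and lists were chosen with earlier results of these data known.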

Additional observations from a re-analysis of the deposited data

Results flagged for a closer look

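In 5 of 48 sets of values, 8 genes in each of the 6 groups of 6 libraries, 1 library stood far from the others, the gap to its nearest neighbour taking most of the group's whole range (Dixon's ratio). Chance does so in about 1 in 20 groups of independent values with a normal spread. The 48 sets reuse the same libraries and are small numbers of molecules, so that rate need not hold here. In GABA-treated *muMt*-/- TAMs, *Sqle* was at 15.9 normalized molecules in replicate 1 (12 molecules) and at 3.66 to 7.21 in the others, and *Fdft1* at 6.10 in replicate 3 (6 molecules) and at 3.98 to 4.58 in the others. In WT TAMs, *Fdps* was at 11.9 in replicate 1 (14 molecules) and at 4.39 to 7.10 in the others. In *muMt*-/- CD8+ T cells, *Fdft1* was at 4.05 in replicate 1 (4 molecules) and at 0 to 1.12 in the others. In GABA-treated *muMt*-/- CD8+ T cells, *Cyp51* was at 6.36 in replicate 1 (10 molecules) and at 0 to 2.36 in the others. The cause was not tested.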

How the results depend on the processing

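In 186 counts over comparisons and settings, 0 cholesterol synthesis genes passed the adjusted threshold. Some could only be 0: filterByExpr kept none of these genes in 6 comparisons, and DESeq2 gave them no adjusted p in 4, so these counts say nothing of stability. Of 346 fold changes under settings other than leaving out 1 library, 335 kept their direction and 11 changed sign. With DESeq2 size factors, *Sqle* was at -0.013 in GABA-treated against WT CD8+ T cells, *Insig1* at -0.13 in WT TAMs against WT CD8+ T cells and *Idi1* at 0.078 in the difference in B cell loss. With the DESeq2 Wald test, the same values were -0.10, -0.13 and 0.10, and *Hmgcs1* was at -0.0030 in *muMt*-/- against WT and *Fdft1* at -0.0031 in GABA-treated against untreated *muMt*-/- CD8+ T cells. With total molecules only, *Insig1* was at -0.29 and *Cyp51* at -0.0076 in WT TAMs against WT CD8+ T cells, and *Sqle* at 0.014 in the difference in GABA. The cause was not tested.

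Leaving out 1 library gave 1018 fold changes, 936 with the same direction and 82 with the other, over these ranges of log2 fold change. In *muMt*-/- against WT TAMs *Hmgcs1* -0.26 to 0.013, *Idi1* -0.17 to 0.19, *Cyp51* -0.49 to 0.18. In GABA-treated against untreated *muMt*-/- TAMs *Idi1* -0.56 to 0.14. In GABA-treated against WT TAMs *Idi1* -0.52 to 0.18, *Fdps* -0.22 to 0.43, *Cyp51* -0.070 to 0.48, *Insig1* -0.13 to 0.22. In *muMt*-/- against WT CD8+ T cells *Hmgcs1* -0.18 to 0.58, *Idi1* -0.057 to 0.24. In GABA-treated against untreated *muMt*-/- CD8+ T cells *Fdft1* -0.34 to 0.33, *Cyp51* -0.61 to 0.32. In GABA-treated against WT CD8+ T cells *Hmgcs1* -0.62 to 0.17, *Sqle* -0.34 to 0.51, *Cyp51* -0.43 to 0.59, *Insig1* -0.59 to 0.16. In WT TAMs against WT CD8+ T cells *Sqle* -0.72 to 0.064, *Cyp51* -0.031 to 0.54, *Insig1* -0.25 to 0.43. In the difference in B cell loss *Idi1* -0.31 to 0.056, *Sqle* -0.089 to 0.98, *Lss* -1.47 to 0.098, *Insig1* -0.31 to 0.38. In the difference in GABA *Idi1* -0.14 to 0.55, *Sqle* -0.73 to 0.26, *Fdps* -0.098 to 0.54, *Cyp51* -0.074 to 0.91, *Insig1* -0.12 to 0.46.

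The number of genes called depended more on the setting. For *muMt*-/- against WT TAMs it was 194, and 295 with filterByExpr, 343 without a filter, 323 with the 12 libraries compared and 67 to 231 without 1 library. In GABA-treated against untreated *muMt*-/- TAMs it was 2, and 62 with DESeq2, 51 without a filter, 4 with the replicate block, 3 with DESeq2 size factors or filterByExpr and 2 to 36 without 1 library. In GABA-treated against WT TAMs it was 7, and 13 with DESeq2, 2 with filterByExpr, 63 without a filter, 4 with 12 libraries and 2 to 9 without 1 library. In CD8+ T cells it was 0 in each comparison, and 72, 11 and 64 without a filter, 1 in *muMt*-/- against WT mice with 12 libraries and 0 to 13 without 1 library, 2 with the block and 0 to 1 without 1 library in GABA-treated against untreated mice, and 1 with DESeq2 size factors, DESeq2, the block or 12 libraries and 0 to 1 without 1 library in GABA-treated against WT mice. In WT TAMs against WT CD8+ T cells it was 1928, and 1166 with filterByExpr and 1684 to 1857 without 1 library. For the difference in B cell loss it was 1, and 0 with either other scaling or filterByExpr, 38 with DESeq2, 79 without a filter, 2 with the block and 0 to 9 without 1 library. For the difference in GABA it was 0, and 17 without a filter and 0 to 2 without 1 library. The cause was not tested.

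Same-numbered libraries of different groups had correlations of -0.394 to 0.45 of their deviations from the group means, and not every library was nearest to its own number, so the numbers are not read as pairs; with the replicate block 0 cholesterol synthesis genes were called. The filterByExpr setting kept 1 of the 8 in TAMs, *Hmgcs1*, and 0 in CD8+ T cells or in all libraries, so it gives no fold change for the others. With 0 to 18 molecules per gene and library, a fold change that misses the threshold does not show that groups were alike.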
